A study of Mus musculus with 24 samples.

Results

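Cortex of mice homozygous for the P522R variant of Plcg2 was compared with cortex of mice homozygous for its M28L variant, both on the 5xFAD background. The comparison took the 16 libraries whose titles give those genotypes, 8 for P522R and 8 for M28L, out of 24 in the study. Each group held 4 libraries with the letter F and 4 with the letter M in the title, and the letter was a term of the model. All mice were 7.5 months old, and each library came from a different animal number. The other 8 libraries were 5xFAD mice without a Plcg2 variant, and their levels are given for reference. Every group therefore carried the 5xFAD transgenes, which are human genes with familial Alzheimer's disease mutations, so no group without amyloid enters the comparison. The transgenes are driven by the Thy1 promoter, which is active in neurons. The Plcg2 variants are carried by every cell, and whole cortex was sampled, so a gene's level reflects all cell types together.

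Plcg2 encodes phospholipase C-gamma-2, which in the brain is made mostly by microglia. It acts below the receptor Trem2 and its adaptor Tyrobp, where it cleaves a membrane phospholipid into messengers that release calcium and activate protein kinase C. Microglia around amyloid plaques turn on a set of genes for phagocytosis, lysosomal digestion and lipid handling, called the disease-associated programme, and Trem2 is needed for its full form. In people P522R is linked to a lower and M28L to a higher risk of Alzheimer's disease, and the comparison sets these variants directly against each other.

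The P522R and M28L libraries differed in composition as well as in single genes. Bc1, a short noncoding RNA of neuronal dendrites, took 5.32 to 19.8% of counts in P522R (median 9.08%) and 3.0 to 6.01% in M28L (median 3.82%), and 7 of 8 P522R libraries lay above every M28L library (exact two-sided permutation test adjusted over 6 measures, adjusted p = 0.00093). Fewer genes had a count in P522R, 22958 to 26648 (median 25046), than in M28L, 25608 to 28227 (median 27675; adjusted p = 0.0068 by the same permutation test). Total counts ran from 94698916 to 106089349 in P522R and from 92358031 to 111292787 in M28L and did not differ by that permutation test (adjusted p = 0.29). Bc1 exceeded 10% of counts in 4 P522R libraries (replicates 8, 24, 31 and 106) and in no M28L library. In M28L, replicate 28 stood apart, with the highest Bc1 and mitochondrial shares of its group. The plot of Bc1 share against genes detected shows this, and counts are given below with and without the libraries above 10% Bc1.

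**Figure D1:**
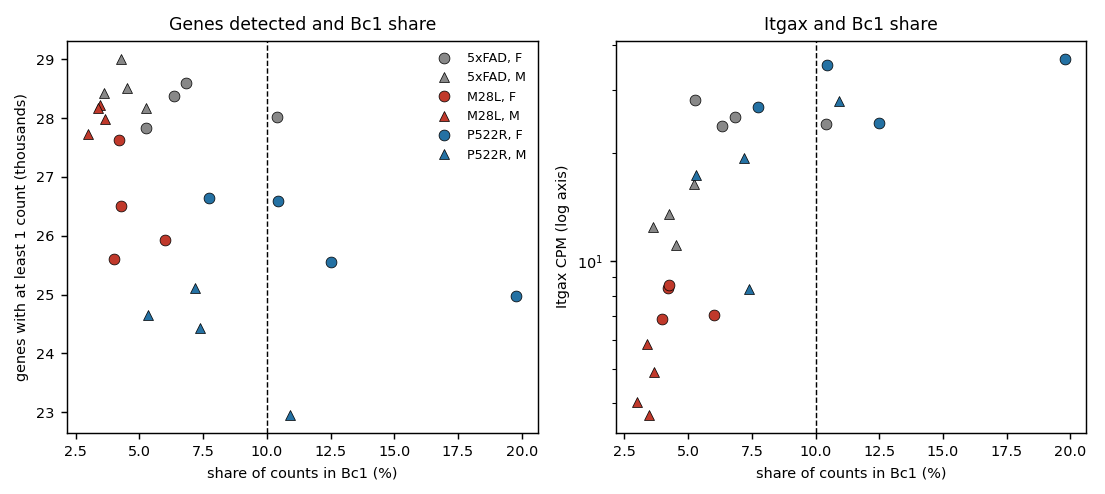
Share of counts taken by Bc1 in each of the 24 libraries (horizontal axis, %) against the number of genes with at least 1 count (left) and against the level of Itgax (right, CPM on a log axis). Colours give the genotype and symbols the title letter. The dashed line marks 10%, which 4 P522R libraries and 1 5xFAD library exceed. Itgax was higher in P522R than in M28L also among the libraries to the left of that line.

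Of 21280 genes tested, 7405 differed between P522R and M28L at an adjusted p below 0.05 (34.8%), of which 3519 were higher in P522R (16.5%) and 3886 lower (18.3%). Most differences were small. The median size was 0.47 on the log2 scale among genes higher in P522R and 0.37 among genes lower, and 261 of the higher and 95 of the lower genes exceeded a log2 difference of 1. All 8 P522R libraries lay above all 8 M28L libraries for 351 genes (1.65%) and below them for 205 (0.963%). Within F and within M taken apart, P522R lay wholly above M28L for 699 genes (3.28%) and wholly below for 788 (3.7%). With those above 10% Bc1 left out, 1471 genes were higher (6.62%) and 1488 lower (6.7%). With the log2 Bc1 share as a further covariate 18 genes were higher (0.0846%) and 2 lower (0.0094%), so nearly every call below was lost in that fit. When the prefix in the titles, a letter and number that the labels leave unexplained, replaced the letter as a block, 723 genes were higher (3.4%) and 536 lower (2.52%). Since the Bc1 shares of the genotypes hardly overlapped, the share and the genotype cannot be told apart.

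Genes higher and lower in P522R differed in base composition and length. Genes higher in P522R had a median GC content of 54.5% and a median exon length of 3290 bases, while genes lower had 46.5% and 6076 bases, against 49.2% and 3492 bases over all genes tested. With the genes in 5 equal bins, 36.9% of the bin richest in GC were higher in P522R and 4.34% lower. In the bin poorest in GC, 3.8% were higher and 22.3% lower. In the bin of longest genes 41.5% were lower. With offsets for GC content and length 7299 genes were called, close to the number without them, but counts within gene lists changed both ways. Class I antigen presentation genes called higher went from 10 to 5, and lysosomal genes from 22 to 26.

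**Figure D2:**
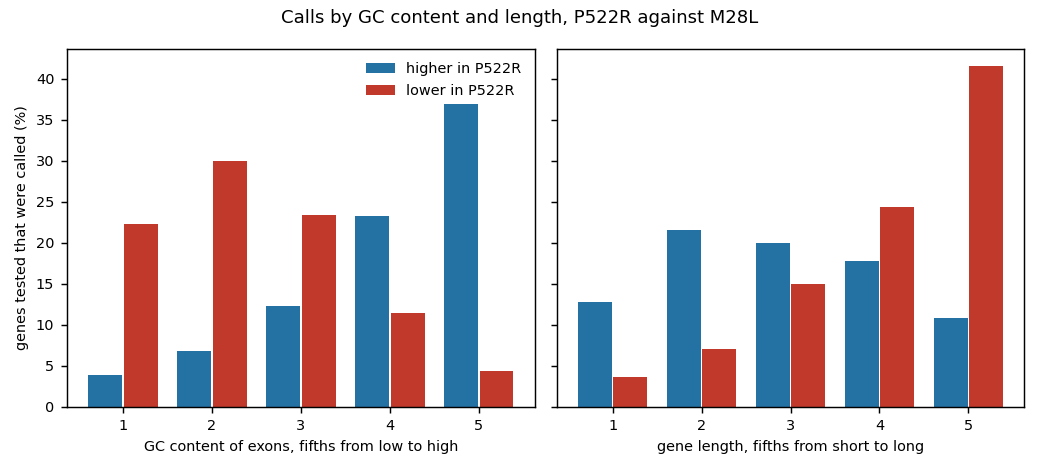
Share of genes tested that were called higher (blue) or lower (red) in P522R than in M28L, by 5 equal bins of GC content (left) and of gene length (right). Calls higher in P522R rise from 3.8 to 36.9% with GC content, and calls lower rise to 41.5% in the longest genes.

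Plcg2 itself was higher in P522R than in M28L. It ran from 10.5 to 31.7 CPM in P522R (median 18.3) and from 6.65 to 12.3 CPM in M28L (median 8.04), and from 6.08 to 13.2 CPM in 5xFAD (median 9.32). In 7 of 8 P522R libraries it lay above every M28L library, and within F and within M the groups did not overlap. The log2 difference was 1.15 (SE 0.14, adjusted p = 1.4e-06), and an exact two-sided permutation test of its log2 CPM gave p = 0.00047. Without the libraries above 10% Bc1 the difference was 0.89 (adjusted p = 0.00063), and with the Bc1 covariate it was 0.89 (adjusted p = 0.26). Within 1 Mb of Plcg2 on chromosome 8, 15 genes were tested, and 4 were called, against 34.8% of all genes tested. Besides Plcg2 (118225030 to 118361881 in the deposited coordinates, whose build is not named) these were Cmip at 0.50 (SE 0.10), Cdh13 at 0.49 (SE 0.08) and Gcsh at −0.29 (SE 0.07). Cmip lost its call without the libraries above 10% Bc1 (0.32, adjusted p = 0.065) and with the prefix block (adjusted p = 0.085), and Gcsh lost it in F alone (adjusted p = 0.089) and with the block (adjusted p = 0.21). Cmip encodes an adaptor of immune signalling, Cdh13 a cadherin anchored by a lipid, and Gcsh a mitochondrial enzyme of glycine breakdown.

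App, whose human form is a transgene of the model, did not pass the test, and Thy1, whose promoter drives the transgenes, passed narrowly. Counts assigned to mouse App ran from 1621 to 2063 CPM in P522R and from 1538 to 2362 CPM in M28L, with a log2 difference of −0.10 (SE 0.07, adjusted p = 0.28). Thy1 ran from 1859 to 3479 CPM in P522R and from 1675 to 2821 CPM in M28L (0.26, SE 0.09, adjusted p = 0.029), and the call was lost without the libraries above 10% Bc1 (0.12, adjusted p = 0.49). How far reads of the human transgene were counted under App was not tested. Among 25 tested genes of amyloid processing 4 were higher and 10 lower, with a median of −0.16, against −0.03 over all genes tested. The shares were 16.0% and 40.0%, against 16.5% and 18.3% of all genes. Without the libraries above 10% Bc1 2 were higher and 3 lower, and with offsets for GC content and length 3 were higher and 4 lower. With the prefix block 0 were higher and 1 lower, so most of the lower calls were lost in these fits. Aplp1, a relative of App, was the largest rise of this list at 0.65 (SE 0.12, adjusted p = 0.00013).

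The disease-associated microglial programme was higher in P522R than in M28L. Of 38 members tested, 33 were higher (86.8%, against 16.5% of all genes) and 1 was lower (Ank), with a median log2 difference of 0.78. Leaving out the libraries above 10% Bc1, 28 were higher, against 6.62% of all genes, and with the prefix block 26 were higher, against 3.4%. In whole cortex a lower level can come from fewer microglia or from less RNA per cell, and these cannot be told apart.

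Itgax, the integrin CD11c that marks plaque-associated microglia, ran from 8.37 to 36.7 CPM in P522R (median 25.6) and from 3.72 to 8.56 CPM in M28L (median 6.37). A single P522R library lay within the M28L range, and within each letter the groups were apart. The log2 difference was 1.99 (SE 0.16, adjusted p = 1e-08), close in F (2.07) and M (1.99). In 5xFAD Itgax ran from 11.1 to 28.2 CPM (median 20), so the M28L libraries lay below all 5xFAD libraries.

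Gpnmb, a transmembrane glycoprotein of lipid-laden phagocytes, ran from 7.16 to 63.8 CPM in P522R (median 20.5) and from 3.32 to 5.35 CPM in M28L (median 4.15). All P522R libraries lay above all M28L libraries, and the log2 difference was 2.31 (SE 0.23, adjusted p = 1.5e-07). In 5xFAD it ran from 6.88 to 24.3 CPM. Its spread was wider in P522R than in M28L, where the 8 libraries stayed within a few CPM of each other.

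Cst7, the cysteine protease inhibitor cystatin F, ran from 19.1 to 118 CPM in P522R (median 53.9) and from 8.88 to 44.8 CPM in M28L (median 19.5). The groups overlapped across letters but not within F or within M. In M28L every F library lay above every M library, while in P522R the letters overlapped. This gave a log2 difference of 1.63 (SE 0.19, adjusted p = 7.4e-07).

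Atp6v0d2, a subunit of the lysosomal proton pump, was almost absent from M28L. Its level ran from 0.0099 to 0.154 CPM there (median 0.032), while P522R ran from 0.153 to 1.42 CPM (median 0.634) and 5xFAD from 0.216 to 1.62 CPM (median 0.668). A single P522R library reached down to the highest M28L library. Its log2 difference was 4.14 (SE 0.40, adjusted p = 1.2e-07) on these few counts, and it stayed past the threshold with the Bc1 covariate (3.77, adjusted p = 0.014).

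**Figure D3:**
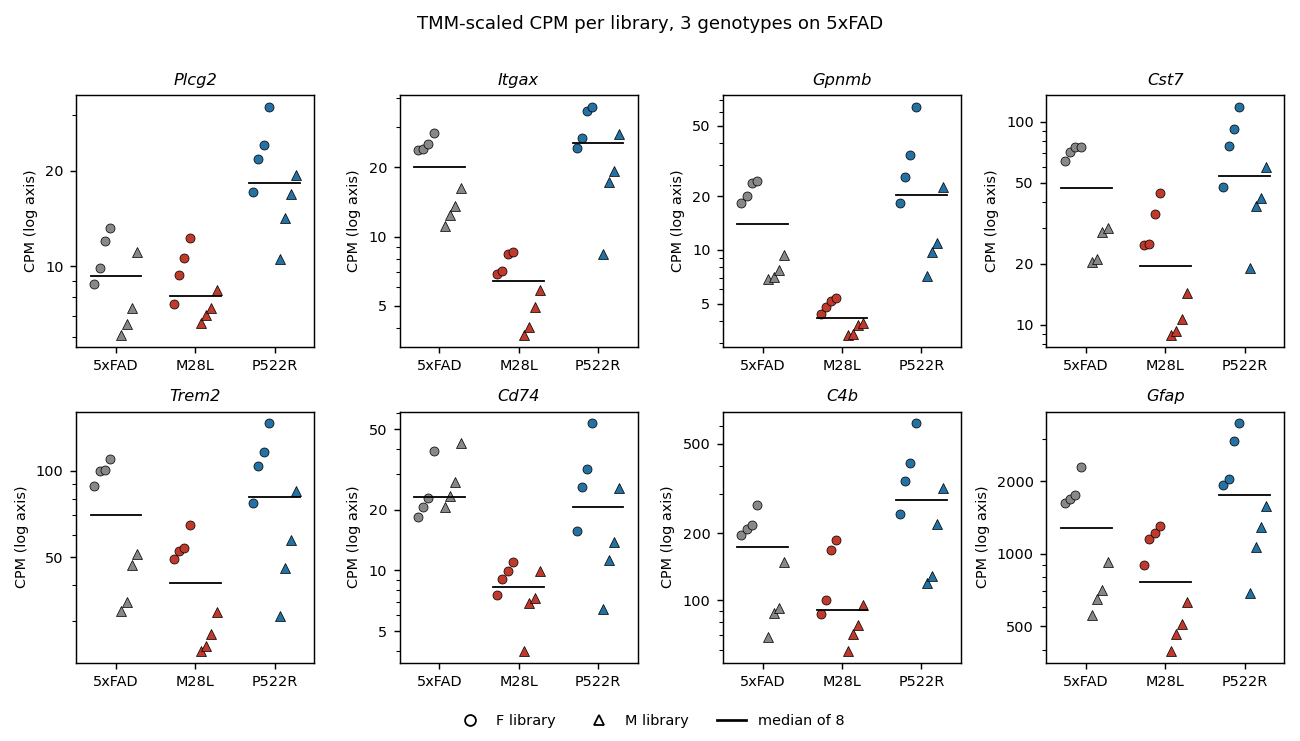
Level of 8 genes in each of the 24 libraries (CPM on a log axis), for 5xFAD (grey), M28L (red) and P522R (blue), with circles for F and triangles for M libraries and a line at the median of 8. M28L sat below 5xFAD for Itgax, Gpnmb and Cd74, while the P522R median lay above both others for Plcg2.

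Other members of the programme moved by similar amounts. Mamdc2 (1.90, SE 0.19), an extracellular protein, and Lilrb4a (1.89, SE 0.20), an inhibitory receptor, showed no overlap between the groups. Among the largest rises outside that list, Ctse (2.01, SE 0.30), an aspartic protease, St14 (1.75, SE 0.18), a membrane serine protease, and Slc15a3 (1.48, SE 0.16), a lysosomal peptide transporter, were separate within each letter. Clec7a, Spp1, Lpl and Axl are well-known members outside the rule for named genes, chosen after their values were seen. Clec7a, the receptor Dectin-1, ran from 9.53 to 47.1 CPM in P522R and from 6.18 to 49.9 CPM in M28L, and no P522R library exceeded the M28L maximum, which was replicate 28 (1.29, SE 0.26, adjusted p = 0.00034). The call was lost in F alone (0.61, adjusted p = 0.058). Spp1, osteopontin, was higher by 1.11 (SE 0.25, adjusted p = 0.0012). Lpl, lipoprotein lipase, was higher by 0.25 (SE 0.10, adjusted p = 0.043), a call that was lost in 9 of the 16 fits that left out 1 library. Axl, a receptor for dying cells, had a difference of 0.13 (SE 0.09, adjusted p = 0.3).

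General myeloid genes were mostly higher in P522R, and homeostatic genes were called higher less often. Of 26 pan-myeloid genes 20 were higher (76.9%, against 16.5% of all genes), with a median of 0.56. Without the libraries above 10% Bc1 18 were higher. Cybb, the catalytic subunit of the phagocyte NADPH oxidase, ran from 2.29 to 4.78 CPM in P522R and from 0.736 to 1.96 CPM in M28L, with no overlap (1.39, SE 0.14, adjusted p = 1.3e-07). Dock2 (0.95, SE 0.12) and Hcls1 (0.98, SE 0.13), regulators of actin in blood cells, and Spi1 (0.88, SE 0.13), the transcription factor PU.1, rose too. Of 25 homeostatic genes 10 were higher and 1 lower (40.0% and 4.0%, against 16.5% and 18.3% of all genes), with a median of 0.15. The other 14 did not pass the test, and 4 were higher and 2 lower without the libraries above 10% Bc1. Csf1r, the receptor that keeps microglia alive, was higher by 0.65 (SE 0.14, adjusted p = 0.00082), a call lost without those libraries (0.39, adjusted p = 0.12). Fcrls, an Fc receptor-like microglial gene, was higher by 0.52 (SE 0.12).

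The purinergic receptor P2ry12, chosen after its values were seen, ran from 25.4 to 54.3 CPM in P522R and from 30.2 to 58.0 CPM in M28L. Its difference was −0.12 (SE 0.14, adjusted p = 0.53), and it was 0.20 without the libraries above 10% Bc1. In F alone P2ry12 was lower in P522R (−0.46, adjusted p = 0.048), and in M alone its difference was 0.28 (adjusted p = 0.18). Tmem119, a microglial membrane protein chosen in the same way, had a difference of 0.19 (SE 0.14, adjusted p = 0.29). For both genes the genotypes overlapped. Cx3cr1, the fractalkine receptor, also chosen in this way, was higher by 0.22 (SE 0.09, adjusted p = 0.05), with its call lost in 10 of the 16 fits that left out 1 library.

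The DNA before the transcription start is printed for Plcg2 and for 4 genes the results turn on, each called higher in P522R than in M28L. The sequences are 250 bases before the RefSeq start on GRCm38.p6, 5′ to 3′ on the gene's strand. Capitals mark matches to 4 short motifs, searched on both strands. They were AGGAAGT, bound by PU.1 and other ETS factors, TGAGTCA, bound by AP-1, TCACGTG, the core of the CLEAR element of lysosomal genes, and CTGATTGG, a Y box of class II promoters, and none of the matches shown overlapped another.
Plcg2, chr8:117498025-117498274, + strand: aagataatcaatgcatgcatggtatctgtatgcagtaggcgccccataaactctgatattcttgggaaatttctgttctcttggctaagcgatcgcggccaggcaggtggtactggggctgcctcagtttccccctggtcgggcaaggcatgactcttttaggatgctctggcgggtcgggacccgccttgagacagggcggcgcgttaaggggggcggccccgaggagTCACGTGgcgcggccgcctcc
Itgax, chr7:128129300-128129549, + strand: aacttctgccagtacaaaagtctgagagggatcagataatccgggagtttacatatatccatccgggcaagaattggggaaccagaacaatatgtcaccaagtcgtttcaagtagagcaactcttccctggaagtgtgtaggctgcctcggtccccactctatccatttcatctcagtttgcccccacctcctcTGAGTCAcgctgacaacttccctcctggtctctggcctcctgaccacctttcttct
Gpnmb, chr6:49036268-49036517, + strand: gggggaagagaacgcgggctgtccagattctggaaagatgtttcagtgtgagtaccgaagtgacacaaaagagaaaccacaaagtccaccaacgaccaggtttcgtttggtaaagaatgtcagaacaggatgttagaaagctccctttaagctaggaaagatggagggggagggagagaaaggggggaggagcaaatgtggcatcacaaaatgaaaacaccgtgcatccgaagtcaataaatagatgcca
Cst7, chr2:150570165-150570414, + strand: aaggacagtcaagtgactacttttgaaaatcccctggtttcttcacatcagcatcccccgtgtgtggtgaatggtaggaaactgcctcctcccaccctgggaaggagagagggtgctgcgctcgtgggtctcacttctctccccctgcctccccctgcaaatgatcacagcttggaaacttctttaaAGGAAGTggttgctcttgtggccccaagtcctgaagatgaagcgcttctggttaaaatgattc
H2-Aa, chr17:34287824-34288073, − strand: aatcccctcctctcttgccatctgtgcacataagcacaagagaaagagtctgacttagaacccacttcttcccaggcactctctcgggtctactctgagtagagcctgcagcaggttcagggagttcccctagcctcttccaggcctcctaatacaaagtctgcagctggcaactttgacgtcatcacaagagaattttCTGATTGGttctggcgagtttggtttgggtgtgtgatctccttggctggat

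The CLEAR core stood 21 bases before the start of Plcg2, the AP-1 motif 56 bases before the start of Itgax, the ETS motif 63 bases before that of Cst7 and the Y box 51 bases before that of H2-Aa, each counted from the first base of the motif. Gpnmb held none of the 4 in this window. Among 32841 promoters of this length from RefSeq 7.69% held the ETS motif, 4.46% the AP-1 motif, 3.13% the CLEAR core and 3.83% the Y box. Counted per gene, over 27018 genes, the shares were 8.8%, 5.16%, 3.58% and 4.43%. Of 28 disease-associated genes with a promoter there 4 held the ETS motif and 2 each of the others. Of 23 pan-myeloid genes 7 held the ETS motif, and of 33 lysosomal genes 9 held the CLEAR core. These matches describe letters, and binding was not measured.

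Genes of the pathway in which Plcg2 acts were called higher more often than all genes, and the receptor complex was higher. Of 34 tested, 16 were higher and 6 lower (47.1% and 17.6%, against 16.5% and 18.3% of all genes), with a median of 0.26. The receptor Trem2 ran from 31.3 to 146 CPM in P522R (median 81.0) and from 23.6 to 64.5 CPM in M28L (median 40.8), and 5 of 8 P522R libraries lay above the M28L maximum (1.02, SE 0.15, adjusted p = 9.8e-06). Its adaptor Tyrobp was higher by 0.87 (SE 0.13) and was separate within each letter. Ptpn6, the phosphatase SHP-1 that dampens such receptors, was higher by 0.90 (SE 0.14). The 6 members that were lower were Fyn, Bcl10, Itpr1, Vav3, Pik3r1 and Prkcb, genes that neurons and other cells of the brain also express. Among libraries below 10% Bc1, 13 pathway genes were higher and 1 lower, and with the prefix block 10 were higher and 1 lower.

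Fc receptors for antibodies were mostly higher in P522R. Of 6 tested, 5 were higher with a median of 0.63. The high-affinity receptor Fcgr1 ran from 7.34 to 21.8 CPM in P522R and from 5.35 to 12.0 CPM in M28L (0.84, SE 0.13, adjusted p = 2.9e-05). The inhibitory Fcgr2b (0.78, SE 0.13), the shared signalling chain Fcer1g (0.79, SE 0.14) and Fcgr3 (0.45, SE 0.11) rose as well.

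Antigen presentation genes were higher in P522R. Of 16 class II genes tested 9 were higher, with a median of 0.36, and 4 were higher without the libraries above 10% Bc1. Cd74, the chain that escorts class II molecules, ran from 6.43 to 53.8 CPM in P522R (median 20.6) and from 3.97 to 11.0 CPM in M28L (median 8.28). In 7 of 8 P522R libraries it exceeded the M28L maximum, and in 5xFAD it ran from 18.4 to 42.9 CPM, above all M28L libraries. The log2 difference was 1.43 (SE 0.28, adjusted p = 0.00024). H2-Ab1 (1.14, SE 0.26) and H2-Aa (1.11, SE 0.30), the chains of the class II molecule I-A, rose by similar amounts, but neither passed without the libraries above 10% Bc1 (adjusted p = 0.14 and 0.18). Reads of near-identical H2 genes may be split between them.

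Of 19 class I genes 10 were higher, with a median of 0.38, and 3 were higher without the libraries above 10% Bc1. With offsets for GC content and length 5 were higher, with a median of 0.19. Tap1, the peptide transporter, was higher by 0.94 (SE 0.19) and lost its call without those libraries (0.32, adjusted p = 0.23). Psmb8, an immunoproteasome subunit, was higher by 0.73 (SE 0.11), and Calr, the chaperone calreticulin, ran from 648 to 738 CPM in P522R and from 470 to 581 CPM in M28L with no overlap (0.38, SE 0.08).

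Complement, interferon and cytokine genes were mostly higher or not called. Of 21 complement genes 12 were higher, with a median of 0.35 (6 higher without the libraries above 10% Bc1). With offsets for GC content and length 8 were higher, with a median of 0.20. C4b, a classical pathway component made by astrocytes and microglia, ran from 120 to 620 CPM in P522R (median 281) and from 59.3 to 186 CPM in M28L (median 91.1), apart within each letter (1.48, SE 0.21, adjusted p = 6.9e-06). C5ar1, the receptor of the C5a fragment, was higher by 1.12 (SE 0.14) with no overlap. C3ar1, the receptor of C3a, was higher by 0.84 (SE 0.12), and C1qa, an initiator chain chosen after its values were seen, by 0.52 (SE 0.12). C1qa lost its call with those offsets (0.16, adjusted p = 0.29).

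Of 40 interferon-response genes 13 were higher, with a median of 0.27 (5 higher without the libraries above 10% Bc1). Ifitm3, a membrane protein that blocks viral entry, was higher by 0.85 (SE 0.13), and Oas1a, an RNA sensor, by 1.09 (SE 0.19). Of 45 genes of cytokines, chemokines and Toll-like receptors 16 were higher and 3 lower, among them Il33 and Cxcl12. Tgfb1, the cytokine that maintains microglial identity, ran from 16.7 to 46.6 CPM in P522R (median 27.9) and from 9.67 to 18.0 CPM in M28L (median 12.3), with 7 of 8 P522R libraries above the M28L range (1.19, SE 0.12, adjusted p = 1.5e-07). Cd14, the co-receptor for bacterial lipopolysaccharide, was higher by 1.03 (SE 0.12) and kept its call with the Bc1 covariate (1.25, adjusted p = 0.021).

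Most lysosomal genes that were called were higher in P522R, and proton pump genes moved in both directions. Of 40 lysosomal hydrolases and membrane proteins 22 were higher and 3 lower (Galc, Scarb2 and Tmem106b), with a median of 0.31, and 13 were higher and 1 lower without the libraries above 10% Bc1. Cd68, the glycoprotein used to mark phagocytic microglia, was higher by 1.09 (SE 0.14), the cathepsin Ctsz by 0.75 (SE 0.11) and the tetraspanin Cd63 by 0.82 (SE 0.10).

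Of 20 proton pump genes 5 were higher and 5 lower, 25% each, against 16.5% and 18.3% of all genes. Without the libraries above 10% Bc1 2 were higher, with the prefix block 2 were, and with offsets for GC content and length 5 were higher and 1 lower, so the lower calls were mostly lost. The higher ones were Atp6v0d2 and the membrane-sector genes Atp6v0d1, Atp6v0a1, Atp6v0b and Atp6v0e. The lower ones were the cytosolic-sector genes Atp6v1a, Atp6v1c1, Atp6v1e1 and Atp6v1h and the accessory gene Atp6ap2. Atp6v0d1 differed by 0.52 (SE 0.08) with no overlap, and Atp6v1a by −0.24 (SE 0.05). Atp6v1a lost its call with those offsets (−0.05, adjusted p = 0.5) and without the libraries above 10% Bc1 (−0.16, adjusted p = 0.068). Of 19 genes of autophagy and the MiT factors that govern lysosomal genes 6 were higher and 6 lower, 31.6% each. Without the libraries above 10% Bc1 2 were higher and 2 lower. Tfeb was higher by 0.85 (SE 0.15) and Tfe3 by 0.49 (SE 0.10). Tfe3 lost its call without the libraries above 10% Bc1 (0.25, adjusted p = 0.098).

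Lipid storage genes were higher and sterol synthesis genes split. Of 22 genes of lipid droplets and lipases 12 were higher and 1 lower (Fitm2), with a median of 0.35, and 4 were higher without the libraries above 10% Bc1. Pnpla2, the lipase that opens triglyceride droplets, ran from 24.1 to 38.8 CPM in P522R and from 12.1 to 18.5 CPM in M28L with no overlap (0.90, SE 0.10, adjusted p = 4.3e-07). Plin2, a coat protein of droplets, was higher by 0.77 (SE 0.11).

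Apoe, the lipid carrier of the brain, ran from 2179 to 3824 CPM in P522R (median 2650) and from 1497 to 2183 CPM in M28L (median 1902), apart within each letter (0.59, SE 0.08, adjusted p = 7.6e-06). Of 23 lipoprotein and efflux genes 9 were higher and 3 lower, the last being Abca1 and the neuronal receptors Lrp8 (−0.44, SE 0.06) and Vldlr (−0.43, SE 0.07). Of 34 genes of sterol and fatty acid synthesis 11 were higher and 8 lower (32.4% and 23.5%, against 16.5% and 18.3% of all genes). Hsd17b7, an enzyme of cholesterol synthesis, fell by 0.56 (SE 0.08). Among libraries below 10% Bc1, 1 gene of that list was higher and 4 lower.

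Astrocyte genes were higher in P522R. Of 28 markers of reactive astrocytes 11 were higher and 1 lower (Ptx3), and 11 were higher without the libraries above 10% Bc1. Gfap, the intermediate filament of reactive astrocytes, ran from 687 to 3494 CPM in P522R (median 1755) and from 394 to 1310 CPM in M28L (median 768). The genotypes overlapped across letters and were apart within each (1.20, SE 0.15, adjusted p = 1.6e-06). Serpina3n, a protease inhibitor, was higher by 1.33 (SE 0.16).

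Of 27 general astrocyte genes 15 were higher and 1 lower (Slc1a2), with a median of 0.21, and 10 were higher without the libraries above 10% Bc1. Atp1b2, a sodium pump subunit, ran from 891 to 1263 CPM in P522R and from 463 to 731 CPM in M28L with no overlap (0.85, SE 0.09, adjusted p = 3.6e-07). Mt2, a metallothionein, was higher by 0.92 (SE 0.10), and Aldh1l1, a folate enzyme used as an astrocyte marker, by 0.78 (SE 0.12). All 3 of these genes had P522R libraries wholly above M28L libraries.

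**Figure D4:**
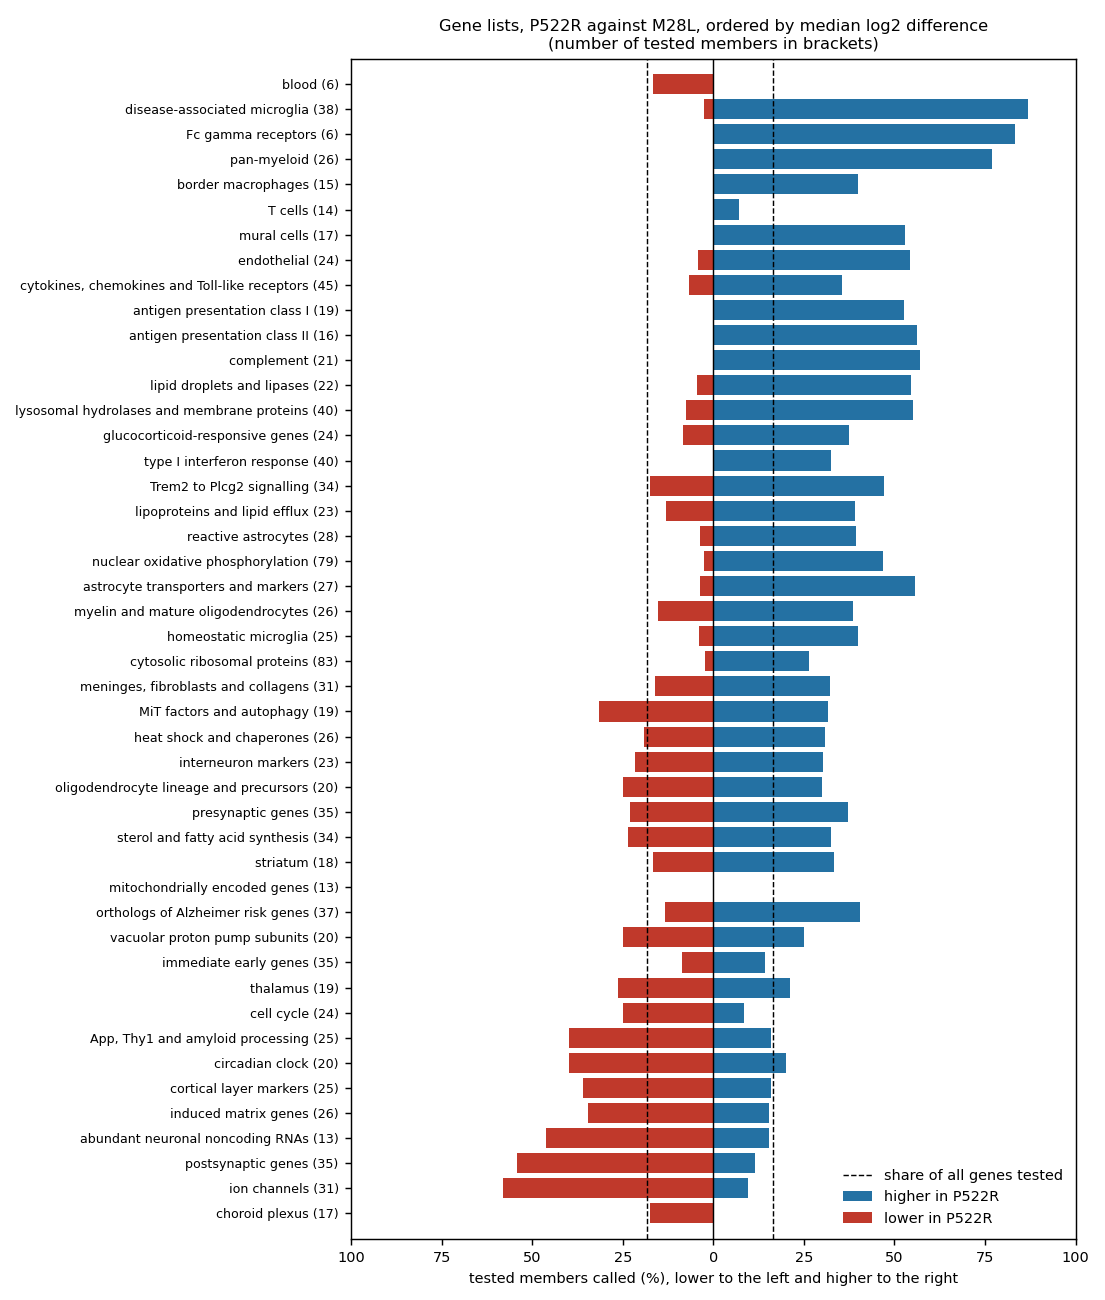
Share of the tested members of 46 gene lists that were called higher (blue, to the right) or lower (red, to the left) in P522R than in M28L, ordered by the list's median log2 difference, with the number of tested members in brackets. Dashed lines mark the shares over all genes tested, 16.5% higher and 18.3% lower. Myeloid lists reach furthest to the right, and ion channels and postsynaptic genes furthest to the left.

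Several matrix and wound genes were lower in P522R, and for 5 of them the difference was greater in F, where M28L was high. Thbs1, the matrix protein thrombospondin, ran from 0.842 to 2.73 CPM in P522R (median 1.84) and from 2.0 to 25.5 CPM in M28L (median 9.95), while 5xFAD ran from 1.05 to 1.60 CPM. M28L was thus high against both other genotypes. The log2 difference was −2.50 (SE 0.34, adjusted p = 5e-06). In F the M28L libraries lay between 12.5 and 25.5 CPM and the P522R libraries between 0.905 and 2.17 CPM (−3.35). In M the ranges were 2.0 to 7.39 CPM and 0.842 to 2.73 CPM (−1.33), and the difference between the letters passed the test (−2.07, SE 0.46, adjusted p = 0.022).

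Lox, the enzyme that cross-links collagen, showed the clearest split by letter. It ran from 10.9 to 22.8 CPM in the F libraries of M28L and from 0.449 to 0.891 CPM in its M libraries. In P522R the same letters ran from 1.11 to 2.16 CPM and from 0.688 to 1.72 CPM. Its log2 difference was −3.42 in F (adjusted p = 3.1e-06) and 0.57 in M (adjusted p = 0.17), and the interaction was −4.04 (adjusted p = 5.8e-06). Grem1, a BMP antagonist, had −2.35 in F and −0.43 in M. Tnc, the matrix protein tenascin, had −1.91 and −0.52, and Fbln2, a fibulin, −1.57 and −0.60. The calls of Lox (−0.99, adjusted p = 0.33) and Grem1 (−1.01, adjusted p = 0.13) were lost without the libraries above 10% Bc1. All 5 genes passed the interaction test, as did 5.47% of all genes, but with the 16 libraries of P522R and M28L alone that test called 4 genes in all.

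**Figure D5:**
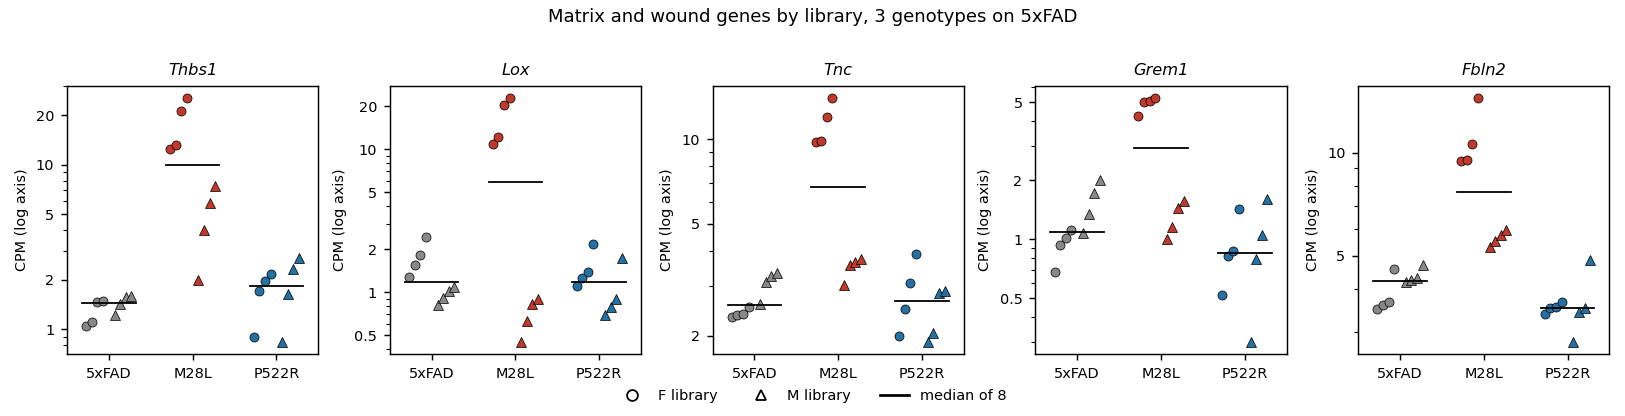
Level of 5 matrix and wound genes in each of the 24 libraries (CPM on a log axis), with circles for F and triangles for M libraries and a line at the median of 8. The F libraries of M28L stand above all other libraries for each gene, such as 10.9 to 22.8 CPM for Lox.

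Over the whole list of 26 induced matrix genes 4 were higher (Tgfb1, Fbln1, Loxl1 and Tgfbr2) and 9 lower, with a median of −0.19. These were 15.4% and 34.6%, against 16.5% and 18.3% of all genes. Without the libraries above 10% Bc1 3 matrix genes were higher and 4 lower, and with the prefix block 3 were higher and 3 lower. Of 31 genes of meninges, fibroblasts and collagens 10 were higher (32.3%) and 5 lower (16.1%). With the prefix block 2 of the 31 were higher and 1 lower. The 5 lower genes were all collagens, such as Col5a1 (−0.49, SE 0.10). Col5a1 lost its call in F alone (−0.26, adjusted p = 0.26). Foxc2, a transcription factor of the meninges and mesenchyme, ran from 1.36 to 2.47 CPM in P522R and from 0.718 to 1.08 CPM in M28L with no overlap (1.07, SE 0.16). The summed level of these 31 genes ran from 1033 to 1442 CPM in P522R, from 918 to 1274 CPM in M28L and from 768 to 1128 CPM in 5xFAD, and its part in the matrix results was not tested.

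Vessel genes were higher in P522R. Of 24 endothelial genes 13 were higher and 1 lower (Tjp1), with a median of 0.39, and 6 were higher without the libraries above 10% Bc1. Itm2a, a membrane protein of brain vessels, ran from 44.5 to 91.4 CPM in P522R and from 32.8 to 42.5 CPM in M28L with no overlap (0.94, SE 0.11, adjusted p = 6.4e-07). Ly6a (0.96, SE 0.12) and Ly6c1 (0.82, SE 0.12), surface proteins of capillaries, and Cldn5 (0.88, SE 0.14), a tight junction protein, showed no overlap either. Of 17 mural genes 9 were higher, such as Vtn, vitronectin from pericytes (0.80, SE 0.13). In F alone 19 endothelial genes were higher, and in M alone 5 were, against 17.2% and 12.7% of all genes; the difference between the letters was not tested for the list.

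Macrophages of the brain's borders share many genes with microglia. Of 15 of their markers 6 were higher, and 4 were higher without the libraries above 10% Bc1. Their summed level ran from 76.2 to 120 CPM in P522R, above the 53.1 to 67.1 CPM of M28L, and none was at 0 throughout. The part of these cells in the myeloid results was not tested. Maf, a transcription factor of macrophages and some neurons, was higher by 0.65 (SE 0.08). It ran from 47.4 to 81.3 CPM in P522R and from 32.8 to 40.7 CPM in M28L, and so took a large part of that summed level. Cbr2, a carbonyl reductase, was higher by 1.23 (SE 0.33), but this came from replicates 8 and 106 of P522R, and the difference without the libraries above 10% Bc1 was 0.22 (adjusted p = 0.61). The same 2 libraries held Sftpc and Cyp2f2, which in the body are lung genes. Sftpc, surfactant protein C, stood at 20.1 and 8.85 CPM in them and at no more than 2.10 CPM in the other P522R libraries, and without the libraries above 10% Bc1 its difference was 0.17 (adjusted p = 0.65), against 2.09 with all. Cyp2f2 stood at 9.49 and 3.98 CPM, and its difference of 2.76 was 0.92 without the libraries above 10% Bc1 (adjusted p = 0.35).

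Neuronal genes moved in both directions, with ion channel and postsynaptic genes mostly lower. Of 31 ion channel genes 18 were lower in P522R (58.1%, against 18.3% of all genes) and 3 higher, among them Hcn2 and Cacng3, with a median of −0.31. Kcnd3, a potassium channel, ran from 35.4 to 61.7 CPM in P522R (median 51.4) and from 60.3 to 85.5 CPM in M28L (median 78.3), and within each letter the groups were apart (−0.63, SE 0.08). Kcnma1, another potassium channel, was lower as well (−0.56, SE 0.08). Cacng3, an auxiliary subunit of AMPA receptors, was higher by 0.40 (SE 0.06) with no overlap. Without the libraries above 10% Bc1, 12 channel genes were lower and 1 higher, and with offsets for GC content and length 16 were lower and 3 higher.

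Of 35 postsynaptic genes 19 were lower and 4 higher (Dlg4, Grin1, Nrgn and Dlgap4), with a median of −0.27. Among libraries below 10% Bc1, 6 were lower and 2 higher. These genes are long, with a median of 9125 bases, and with offsets for GC content and length 14 were lower and 5 higher, with a median of −0.13. Shank3, a scaffold of excitatory synapses, ran from 41.6 to 72.7 CPM in P522R and from 48.1 to 134 CPM in M28L (−0.71, SE 0.13). Its call was lost in F alone (−0.29, adjusted p = 0.24). Gabrb2, a GABA receptor subunit, was lower by 0.60 on the log2 scale (−0.60, SE 0.11). Nrgn, neurogranin, was higher by 0.47 (SE 0.08) with no overlap, and lost its call with the offsets (0.15, adjusted p = 0.073).

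Of 35 presynaptic genes 13 were higher and 8 lower (37.1% and 22.9%, against 16.5% and 18.3% of all genes). Syn1, which tethers synaptic vesicles, ran from 1182 to 2192 CPM in P522R (median 1789) and from 556 to 898 CPM in M28L (median 875), with no overlap (1.18, SE 0.12, adjusted p = 1.4e-07). Vamp2, the vesicle fusion protein, was higher by 0.48 (SE 0.07) with no overlap. Rims1, a protein of the release site, ran from 135 to 216 CPM in P522R and from 222 to 285 CPM in M28L with no overlap (−0.56, SE 0.08), and Erc2, its partner there, was lower as well (−0.58, SE 0.06). The presynaptic median was 0.06, and 4 were higher and 7 lower without the libraries above 10% Bc1.

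Of 35 genes tied to neuronal activity 5 were higher (Atf3, Maff, Klf2, Nptx2 and Jund) and 3 lower (Nr4a2, Nr4a3 and Fosl2). These shares, 14.3% and 8.57%, lay below the 16.5% and 18.3% of all genes. Nptx2, a secreted pentraxin of active synapses, was higher by 0.59 (SE 0.08) with no overlap. Jund, an AP-1 subunit, was higher by 0.66 (SE 0.09), with 0.51 more in F than in M (adjusted p = 0.047). Of 25 markers of cortical layers 4 were higher (16.0%) and 9 lower (36.0%), with a median of −0.17. Among them were Nxph4, a layer 6b gene, at 0.82 (SE 0.11) and Tle4, a deep-layer factor, at −0.34 (SE 0.07). Without the libraries above 10% Bc1 3 layer markers were higher and 3 lower. With the prefix block 1 was higher and 0 lower, so the lower calls were lost in that fit. With offsets for GC content and length 5 were higher and 7 lower, with a median of 0.009. Tle4 lost its call in F alone (−0.20, adjusted p = 0.15) and with the block (adjusted p = 0.062). Among long noncoding RNAs of neurons Meg3 fell by 0.67 (SE 0.09), Snhg11 by 0.59 (SE 0.10) and Miat by 0.62 (SE 0.10).

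Oligodendrocyte genes moved in both directions. Of 26 myelin genes 10 were higher and 4 lower (Car2, Tspan2, Mobp and Serpinb1a), and of 20 lineage genes 6 were higher and 5 lower (Bcas1, Vcan, Pdgfra, Sox6 and Lhfpl3). Sox10, the lineage's transcription factor, ran from 66.8 to 127 CPM in P522R (median 105) and from 23.9 to 56.5 CPM in M28L (median 48.5), with no overlap (1.08, SE 0.15, adjusted p = 5.4e-06). Mobp, a structural protein of myelin, ran the other way, from 470 to 648 CPM in P522R and from 663 to 958 CPM in M28L, also with no overlap (−0.52, SE 0.07). Trf, transferrin, was higher by 0.72 (SE 0.11), C1ql1, made by precursors, by 0.77 (SE 0.10) and Myrf, which drives myelin genes, by 0.67 (SE 0.12). Among libraries below 10% Bc1, 4 myelin genes were higher and 2 lower, and 5 lineage genes were higher and 1 lower. With the prefix block 2 myelin genes were higher and 1 lower, and 4 lineage genes were higher and 0 lower.

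Part of the genes of ribosomes and respiration were higher in P522R, with counts that differed between the letters. Of 83 cytosolic ribosomal protein genes 22 were higher (26.5%, against 16.5% of all genes) and 2 lower (Rpl4 and Rps27). The median was 0.14, and 14 were higher without the libraries above 10% Bc1. With the prefix block 6 were higher, against 3.4% of all genes. With offsets for GC content and length 22 ribosomal genes were higher and 9 lower, with a median of 0.04. In M alone 56 were higher, against 12.7% of all genes, and in F alone 8 were, against 17.2%, and the difference was not tested for the list. Rpl41, whose reads may be shared with pseudogenes, ran from 285 to 759 CPM in P522R and from 136 to 409 CPM in M28L (1.24, SE 0.18). Of 79 nuclear genes of oxidative phosphorylation 37 were higher (46.8%) and 2 lower (Ndufs1 and Uqcrfs1), with a median of 0.21. Without the libraries above 10% Bc1 16 of these were higher, and with the offsets 34 were higher and 8 lower. With the prefix block 3 of the 79 were higher, near the share of all genes in that fit. The 13 mitochondrially encoded genes had a median of 0.05. Sdhb, a subunit of complex II, was higher by 0.87 (SE 0.13), and Ndufa7, of complex I, by 0.83 (SE 0.13).

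Outside the lists, the smallest p-values fell on genes of general functions. Atn1, a transcriptional corepressor, ran from 28.9 to 47.0 CPM in P522R and from 14.6 to 22.5 CPM in M28L (1.02, SE 0.08, adjusted p = 1e-08), with no overlap. C1ql3, a synaptic organizer secreted by neurons, was higher by 1.11 (SE 0.09), and Zc3h13, part of the complex that methylates messenger RNA, by 0.83 (SE 0.08). Zfp251, a zinc finger gene, ran from 25.2 to 33.7 CPM in P522R and from 40.9 to 52.9 CPM in M28L (−0.67, SE 0.06, adjusted p = 3.1e-08), and Cdh18, a neuronal cadherin, was lower as well (−0.70, SE 0.07).

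With the Bc1 share in the model 20 genes passed. Among the 18 higher in P522R were 4 disease-associated genes, Itgax (1.62, adjusted p = 0.014), Atp6v0d2 (3.77, adjusted p = 0.014), Lilrb4a (2.02, adjusted p = 0.017) and Mamdc2 (1.84, adjusted p = 0.024), and the pan-myeloid gene Cybb (1.74, adjusted p = 0.0016). The others were Cd14, Klrb1b, Foxc2, Cacng3, Atn1, Prrt1, Hspb6, Nptx2, Zc3h13, Rras, Ubap2l, Atp1b2 and Clip3. The 2 lower were Cdh18 and Rnf207. Klrb1b, Prrt1, Rras, Ubap2l, Clip3 and Rnf207 lay outside the rule for named genes and are given to complete the 20.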

How the data were processed

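Bulk RNA-seq libraries of mouse cortex were analysed from the deposited table of raw counts per gene. The authors' counts were made with STAR 2.7.2b and featureCounts, per the submitters' processing notes, and the genome build, annotation and strand setting are not given in the sources used here. Of 53647 gene identifiers 97.1% matched a symbol, and coordinates are as deposited, in an unnamed build. The groups, replicate numbers and letters F and M came from the titles.

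All 24 libraries entered a single edgeR 4.0.16 fit (R 4.3.3, TMM scaling, filterByExpr) with genotype and letter, tested by quasi-likelihood F-test with Benjamini-Hochberg adjustment at 0.05. This test gave every adjusted p of a gene. Differences are P522R minus M28L on the log2 scale, and each SE is the size of the log2 difference divided by the square root of F. CPM are counts divided by the TMM-scaled library size, in the usual CPM unit. The code was tested on simulated data. Alternatives used DESeq2 1.42.0, limma 3.58.1 (voom), other scalings, filters and covariates, and left out libraries.

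The named genes were the targeted gene, App, Thy1 and Bc1, the 15 largest rises and falls at a mean of at least 1 CPM, the 10 smallest p each way, up to 4 members of each of 46 lists by p, and called genes within 1 Mb of Plcg2. Predicted genes and pseudogenes were left out, and a few genes are not reported here. Genes in brackets beside a small count complete that count and were chosen after their values were seen. The comparison, members and lists were chosen with earlier results of these data known. P-values measure the spread between animals, and depth per library is given with the results.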

Additional observations from a re-analysis of the deposited data

Results flagged for a closer look

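Single libraries stood far from the other 7 of their group in 25 of 294 values tested, where chance gives about 5% of groups tested. In M28L, replicate 28 was highest for the Bc1 share of counts (6.01%), for Bc1 itself (57163 CPM), for the mitochondrial share (7.59%) and for the share of the 100 largest genes (26.1%). It was lowest for the GC content of counted reads (48.1%). The same library was highest for Clec7a (49.9 CPM), P2ry12 (58 CPM) and Atp6v0d2 (0.154 CPM) and lowest for Nrgn (994 CPM). Other M28L libraries stood apart in single genes. Replicate 16 was highest for Cacng3 (130 CPM), Rras (7.42 CPM) and Cyp2f2 (0.743 CPM), replicate 17 for Kl (13.2 CPM) and Enpp2 (384 CPM), both expressed in choroid plexus, and replicate 14 for Klrb1b (0.133 CPM).

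In P522R, replicate 8 was highest for Sftpc (20.1 CPM) and Cyp2f2 (9.49 CPM), and replicate 24 for H2-Ab1 (16.1 CPM) and the share of the 100 largest genes (36.8%). Replicate 31 was highest for Fbln2 (4.86 CPM) and Rnf207 (6.32 CPM), and replicate 21 for P2ry12 (54.3 CPM) and Snhg11 (1417 CPM). Replicate 27 was lowest for Clec7a (9.53 CPM) and replicate 54 for Clip3 (1029 CPM).

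The difference between P522R and M28L itself differed between the letters for 9 named genes by edgeR's interaction test at the adjusted threshold. Taken as the log2 difference in F minus that in M, it was −4.04 for Lox, −2.07 for Thbs1, −1.97 for Grem1, −1.46 for Tnc and −1.01 for Fbln2. It was −1.43 for Clec7a, 0.51 for Jund, 0.66 for the noncoding RNA Miat and 2.75 for Sftpc, the last with replicates 8 and 106 of P522R, both F, far above the rest.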

How the results depend on the processing

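The 7405 genes called became 1259 with the title prefix as a replicate block in place of the letter, 20 with the log2 Bc1 share as covariate and 2959 without the libraries above 10% Bc1. The cause was not tested, though the last fit had 4 P522R libraries. The labels do not say what the prefix marks, so the block is no known pairing, and Plcg2 kept its call under it (1.44, adjusted p = 0.0011). Leaving out 1 library gave 6443 to 8402 calls. The other alternatives stayed within 1.5 times, from 5174 in M alone to 7849 with DESeq2. Calls higher in P522R were 47.5% of calls, and 59.4% in F alone. The interaction test called 1164 genes, 4 with only the 16 libraries and 2062 with voom weights.

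Plcg2 lost its call with the Bc1 covariate (0.89) and ran from 1.06 to 1.22 with 1 library left out. The mitochondrial share differed by −0.369 percentage points, by 0.789 without the libraries above 10% Bc1, and by −0.851 to 0.0529 with 1 library left out. The GC content of counted reads differed by 0.534 to 0.937 points with 1 library left out, and passed without P522R replicate 21.

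Of 137 named genes called, 19 were called under every alternative. With the Bc1 covariate set aside 86 were, these 19 included, and 133 were called in all fits that left out 1 library. Signs reversed for App (0.0166 in F alone, 0.15 with GC and length offsets) and Lox (0.57 in M alone, 0.0295 with the block). They reversed for P2ry12 (0.28 in M alone, 0.21 with the Bc1 covariate, 0.20 without the libraries above 10% Bc1) and Tmem119 (−0.13 with offsets, −0.24 with the covariate, −0.0918 without those libraries). With the covariate Adarb2 (0.12) and Atp6v0b (−0.0264) reversed. Bc1 did too (−0.0042), but the covariate is its own share of counts, so that fit cannot tell how far Bc1 differs. Low counts limit Atp6v0d2, Klrb1b, Cd3g and Cyp2f2.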

Other observations

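Further gene groups held calls in both directions between P522R and M28L, as did all genes tested (16.5% higher and 18.3% lower). Of 26 heat shock and chaperone genes 8 were higher in P522R and 5 lower (Hspa4, Hspa9, Hspd1, Dnaja1 and Hsph1). Hspb6, a small heat shock protein, was higher by 1.18 on the log2 scale (SE 0.10), and Bag3, a co-chaperone of selective autophagy, by 0.67 (SE 0.11). Of 24 glucocorticoid-responsive genes 9 were higher and 2 lower (Pdk4 and Errfi1). That was 37.5% and 8.33%, and without the libraries above 10% Bc1 4 were higher and 0 lower. Angptl4, a secreted inhibitor of lipoprotein lipase, ran from 2.10 to 6.21 CPM in P522R and from 1.05 to 2.03 CPM in M28L with no overlap (1.05, SE 0.21). Of 20 circadian genes 4 were higher (Nr1d1, Nfil3, Dbp and Cry2) and 8 lower, such as the activator Arntl (−0.36, SE 0.08). Without the libraries above 10% Bc1 0 circadian genes were higher and 0 lower, and with the prefix block 1 was higher and 0 lower. Arntl lost its call without those libraries (−0.21, adjusted p = 0.094), with that block (adjusted p = 0.058) and in F alone (adjusted p = 0.066). The labels used here give no time of collection.

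Of 24 cell cycle genes 2 were higher (Mcm3 and Mcm5, parts of the replication helicase) and 6 lower. Kif11, a motor of the mitotic spindle, ran from 0.416 to 0.997 CPM in P522R and from 1.10 to 2.17 CPM in M28L with no overlap (−1.04, SE 0.16). Of 23 interneuron genes 7 were higher, such as the neuropeptide Cck (0.46, SE 0.07), and 5 lower (Kit, Gad2, Ndnf, Adarb2 and Gad1).

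Markers of neighbouring regions and of other cells were measured as well. Of 18 striatal genes 6 were higher (33.3%), such as the dopamine receptor Drd2 (0.57, SE 0.09), and 3 lower (16.7%), among them the dopamine receptor Drd1 (−0.42, SE 0.08). Of 19 thalamic genes 4 were higher and 5 lower (21.1% and 26.3%, against 16.5% and 18.3% of all genes). Without the libraries above 10% Bc1 1 was higher and 1 lower. Of 17 choroid plexus genes 3 were lower (Enpp2, Trpm3 and Kl), 17.6% against 18.3% of all genes, and the list's summed level ran from 180 to 292 CPM in P522R and from 255 to 728 CPM in M28L. Without M28L replicate 17 the difference of Kl was −0.52, against −0.93 with all libraries, and Enpp2 and Kl lost their calls without the libraries above 10% Bc1 (adjusted p = 0.14 and 0.07). Of 14 T cell genes 1 was higher (Cd3g), with summed levels of 22.2 to 29.5 CPM in P522R and 21.4 to 26.3 CPM in M28L, and its call was lost in 9 of the 16 fits that left out 1 library.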
